A study of Mus musculus with 6 samples.

Results

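A set of 9 genes that mark striatal projection neurons was read library by library in RNA-seq of the embryonic mouse cortex with and without Ybx1. They were Drd1, Drd2, Adora2a, Ppp1r1b, Penk, Tac1, Ebf1, Isl1 and Rarb, taken by gene symbol from a deposited table of 17348 genes. All 9 of 9 were found and all 9 passed the filter on low counts, among 13570 genes that did. The 2 groups, each of 3 libraries at E18.5 (embryonic day of collection), were compared. Control embryos are labelled as wild type, and the study describes its controls as Ybx1 fl/fl without Cre. The cKO (conditional knockout) embryos were Nestin-Cre, Ybx1 fl/fl. The floxed Ybx1 line was made in C57BL/6J eggs and its founders were bred with C57BL/6J mice. The Nestin-Cre mice came from the Jackson Laboratory. The number of embryos in each library is not given in the sources used here, and p-values measure only the spread between these libraries. Nestin-Cre is active in neural progenitors across the nervous system, so the knockout is not limited to the cortex and the striatum of a cKO embryo would carry it too.

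Medium spiny projection neurons are the main neurons of the striatum, a part of the subpallium that lies beneath the cortex. They are born in the lateral ganglionic eminence, release GABA and fall into a pair of classes. Direct-pathway neurons carry the D1 dopamine receptor and make substance P, while indirect-pathway neurons carry the D2 dopamine receptor and an adenosine receptor and make enkephalin. The excitatory neurons of the cortex come from the pallium instead. These genes are therefore read as a sign of how much subpallium a cortex sample carried. In bulk tissue, fewer cells of a type and less RNA per cell cannot be told apart, and with no striatum library among the samples used here the levels give no share of striatal tissue. Some of the genes are also known outside the striatum. Drd1 and Ppp1r1b are found in deep-layer cortical neurons, and Ebf1, Isl1, Rarb, Penk and Tac1 are used by other cell types of the forebrain and body.

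The libraries held 15091951 to 16885451 estimated counts. Ybx1 fell by 5.47 on the log2 scale in cKO (SE 0.16, adjusted p = 6.95e-07, edgeR), from 13950 to 22152 counts to 387 to 394. The Y-linked genes Eif2s3y and Kdm5d had 856 to 1756 counts in each control library and at most 1 in each cKO library, so that embryo sex and genotype cannot be told apart. Control 2 stood apart from the other libraries: its deviations fell with transcript length (slope -0.13 in log2 CPM per log2 of length, against 0.02 to 0.05 elsewhere), and 33.6% of all genes tested were highest and 33.9% lowest in it. The pallial genes Neurod6, Nfix and Neurod2, which mark cortical excitatory cells, had mean levels of 1032, 454 and 388 TPM in control, as against 3.75 to 59.4 TPM for the 9 striatal genes.

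Values below are normalized counts in CPM (counts scaled by library size with the TMM method) for comparing libraries, and the authors' TPM values (a level per transcript length) for comparing genes. On the TPM scale, Ppp1r1b had the highest level of the 9, with a mean of 69.8 over the 6 libraries. It was followed by Adora2a (9.87), Drd1 (6.90), Ebf1 (5.52), Rarb (5.08), Penk (4.37), Tac1 (3.67), Isl1 (3.58) and Drd2 (3.23). The lowest Ppp1r1b value, 53.0 TPM, was above the highest Adora2a value, 15.8 TPM. Every other pair of neighbors in this order overlapped over the libraries.

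In the comparison of cKO with control, none of the 9 genes passed the test. Group values overlapped for 8 of the 9 in CPM and for 7 of the 9 in TPM, and did not overlap for 14.3% of all genes tested in CPM and 21.6% in TPM. No gene reached an adjusted p under 0.05 in edgeR's quasi-likelihood test, 0 of 9 had an unadjusted p under 0.05, and DESeq2 likewise gave 0 of 9 by either measure, with no adjusted p for Penk and Tac1. Over all genes tested, 10 genes (0.0737%) passed the adjusted and 899 (6.62%) the unadjusted threshold. The median log2 fold change of the 9 genes was -0.19, with 3 above and 6 below zero, and that of all genes tested was 0.00272. The spread between libraries of the same genotype was wide for most of the 9. The coefficient of biological variation estimated by edgeR was 0.31 to 0.63 for 7 of them, against a median of 0.140 over all genes tested, and was 0.143 for Drd1 and 0.153 for Ppp1r1b.

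**Figure D1:**
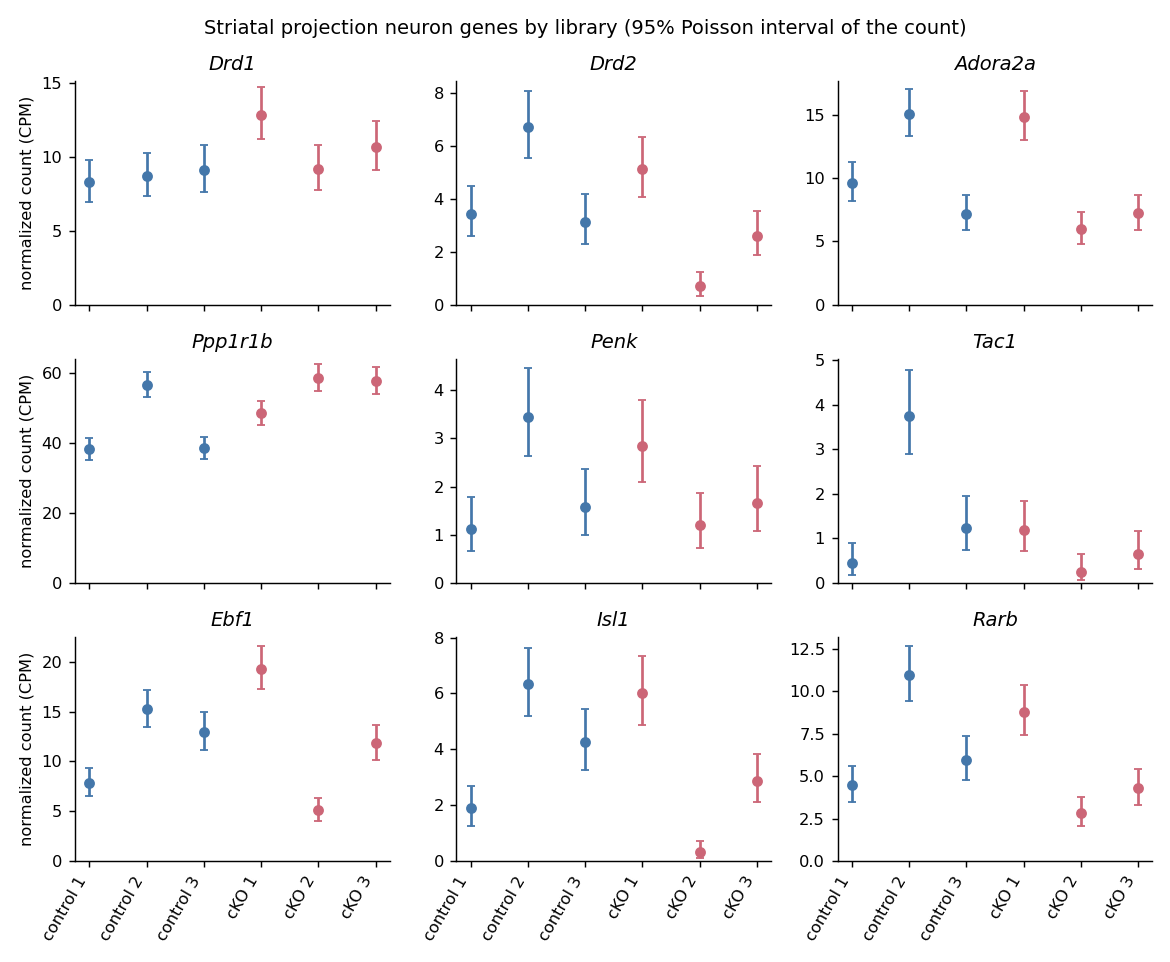
Normalized count (CPM) of each of the 9 genes in the 3 control (blue) and 3 cKO (red) libraries, with bars for the 95% Poisson interval of the count. Control 2 and cKO 1 are high and cKO 2 is low for Drd2, Adora2a, Ebf1, Isl1 and Rarb, whereas Drd1 and Ppp1r1b do not follow this order.

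Among the direct-pathway genes, Drd1 encodes the D1 receptor, which couples dopamine to cyclic AMP production. It had 132, 149 and 133 counts in control 1 to 3 and 208, 146 and 167 counts in cKO 1 to 3, or 8.28, 8.72 and 9.11 CPM against 12.9, 9.19 and 10.7 CPM. All cKO libraries were above all control libraries, though cKO 2 exceeded control 3 by little. The level was 8.70 ± 0.42 CPM in control and 10.9 ± 1.86 CPM in cKO (SD, n = 3). The difference did not pass (log2 fold change 0.33, SE 0.17, 95% interval -0.05 to 0.70, adjusted p = 0.796 by edgeR), and the two-sided exact permutation p of 0.1 is the smallest that 3 libraries against 3 allow. Drd1 was the only one of the 9 genes whose groups did not overlap in CPM, which held for 14.3% of all genes tested.

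Isl1, a LIM-homeodomain transcription factor of developing direct-pathway neurons, varied most. It had 30, 108 and 62 counts in control 1 to 3 and 97, 5 and 45 counts in cKO 1 to 3. In CPM these were 1.88, 6.32 and 4.25 in control and 6.01, 0.315 and 2.87 in cKO. The lowest library, cKO 2, and the second highest, cKO 1, had the same genotype, and the control values lay between them except for control 2. Within the cKO group the ratio of cKO 1 to cKO 2 was 19.1 (95% exact counting interval 7.90 to 60.1). The genotype difference did not pass, with a log2 fold change of -0.44 (SE 0.71, 95% interval -2.05 to 1.17, adjusted p = 0.922 by edgeR).

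Ebf1, a helix-loop-helix factor of differentiating striatal neurons, had 125, 260 and 189 counts over control 1 to 3 and 312, 81 and 185 over cKO 1 to 3. That was 7.84, 15.2 and 12.9 CPM against 19.3, 5.10 and 11.8 CPM. Here cKO 1 was highest and cKO 2 lowest, so the control values fell inside the cKO range. The group means nearly coincided, at 12.0 ± 3.78 CPM in control and 12.1 ± 7.11 CPM in cKO (SD, n = 3), and the log2 fold change was 0.0086 with a 95% interval of -0.94 to 0.95 (adjusted p = 0.998, edgeR).

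Tac1 encodes the precursor of substance P. It was the sparsest of the 9, with 7, 64 and 18 counts in control 1 to 3 and 19, 4 and 10 counts in cKO 1 to 3. The CPM values were 0.439, 3.75 and 1.23 in control and 1.18, 0.252 and 0.639 in cKO. Control 2 alone stood high, and the other 5 libraries lay at or below 1.23 CPM, so that groups overlapped. Its log2 fold change of -1.40 was the largest in size among the 9 but did not pass (SE 0.74, 95% interval -3.08 to 0.28, adjusted p = 0.796, edgeR). Without control 2 the log2 fold change was -0.25.

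Among the indirect-pathway genes, Drd2 encodes the D2 receptor, which lowers cyclic AMP. It had 55, 115 and 46 counts in control 1 to 3 and 83, 11 and 41 counts in cKO 1 to 3, or 3.45, 6.73 and 3.15 CPM against 5.14, 0.692 and 2.62 CPM. Control 2 was highest, cKO 1 next and cKO 2 lowest, and the groups overlapped. The cKO 1 level was 7.42 times that of cKO 2 (95% exact counting interval 3.94 to 15.4), although the 2 libraries shared a genotype. The log2 fold change was -0.66 (SE 0.56, 95% interval -1.92 to 0.60, adjusted p = 0.862, edgeR).

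Adora2a encodes an adenosine receptor that acts against D2 signaling in the same neurons. It had 154, 258 and 105 counts over control 1 to 3 and 240, 95 and 113 over cKO 1 to 3. In CPM, control 2 (15.1) and cKO 1 (14.9) formed a high pair, and control 1 (9.66), cKO 3 (7.22), control 3 (7.19) and cKO 2 (5.98) lay below. The high pair held 1 library of each genotype, and the log2 fold change was -0.19 (SE 0.37, 95% interval -1.03 to 0.64, adjusted p = 0.933, edgeR).

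Penk, the enkephalin precursor, had 18, 59 and 23 counts over control 1 to 3 and 46, 19 and 26 over cKO 1 to 3. Its CPM values were 1.13, 3.45 and 1.58 in control 1 to 3 and 2.85, 1.20 and 1.66 in cKO 1 to 3. Control 2 and cKO 1 were again high, with control 1 and cKO 2 nearly level at the low end. The log2 fold change was -0.12 (SE 0.46, 95% interval -1.15 to 0.91, adjusted p = 0.968, edgeR).

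Ppp1r1b and Rarb are used in both classes. Ppp1r1b encodes DARPP-32, the phosphoprotein through which dopamine acts on protein phosphatase 1. It had 608, 966 and 560 counts in control 1 to 3 and 783, 931 and 903 counts in cKO 1 to 3. On the CPM scale the values were 38.1, 56.6 and 38.4 in control and 48.5, 58.6 and 57.7 in cKO, with control 2 inside the cKO range. On the TPM scale they were 53.0, 67.3 and 58.1 against 73.8, 81.1 and 85.3, and there the groups did not overlap (59.4 ± 7.26 against 80.1 ± 5.81, SD, n = 3, two-sided exact permutation p = 0.1, the smallest possible). Nor did those of Drd1 on the TPM scale, and the same held for 21.6% of all genes tested, while 53.0% of all genes tested were lowest in control 2 in TPM. The log2 fold change was 0.31 (SE 0.17, 95% interval -0.08 to 0.69, adjusted p = 0.806, edgeR). With control 2 left out it was 0.52 with an adjusted p of 0.0499, which was the 1 case in which any of the 9 genes passed over 13 alternative fits (adjusted p for Ppp1r1b 0.0499 to 0.9999). In that fit 122 of all genes tested passed.

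Rarb encodes a retinoic acid receptor that is needed for striatal differentiation. It had 71, 187 and 87 counts over control 1 to 3 and 142, 45 and 67 over cKO 1 to 3, or 4.45, 10.9 and 5.96 CPM against 8.79, 2.83 and 4.28 CPM. Control 2 and cKO 1 were high and cKO 2 low, as for Isl1 and Drd2. The log2 fold change was -0.43 (SE 0.44, 95% interval -1.42 to 0.56, adjusted p = 0.888, edgeR). Some of its annotated exons overlap those of Top2b on the opposite strand, as exons of Penk and Ppp1r1b overlap A830012C17Rik and 1700003D09Rik, and whether the counting used strand is not given in the sources used here.

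The genes lie on GRCm38 at chromosome 13 (Drd1, 54051183 to 54055705, minus strand; Isl1, 116298281 to 116309689, minus), 11 (Ebf1, 44617317 to 45008091, plus; Ppp1r1b, 98348404 to 98357796, plus), 6 (Tac1, 7554879 to 7565834, plus), 9 (Drd2, 49340627 to 49408177, plus), 10 (Adora2a, 75316877 to 75334784, plus), 4 (Penk, 4133531 to 4138819, minus) and 14 (Rarb, 16430839 to 16819156, minus). Their positions come from GENCODE, and only the pairs on chromosomes 11 and 13 share a chromosome. RefSeq promoter entries (GRCm38.p6) were found for 6 of the 9 genes, Drd1, Drd2, Tac1, Ebf1, Isl1 and Rarb. Their 250 bases before the start were searched on both strands, and whether the genes share a regulator was not tested. The retinoic acid response element was searched as GTTCA, 6 bases of any kind and GTTCA again. It was found in Rarb, in which such an element is known to bind retinoic acid receptors, and in 0.0670% of 32851 promoter entries. The cyclic AMP element variant TGCGTCA was found in Tac1 and Isl1 and in 1.75% of entries. The palindromic element TGACGTCA (1.55% of entries) and the EBF motif TCCCNNGGGA (0.779%) were found in 0 of the 6. The stretches are printed in the direction of the gene, 5′ to 3′, with the matched letters in capitals, for Rarb as the element alone (chr14:16575513-16575528, minus strand, 52 to 37 bases before the start), for Isl1 as 249 bases (chr13:116309690-116309938, minus strand) and for Tac1 as 68 bases (chr6:7554811-7554878, plus strand).
Rarb: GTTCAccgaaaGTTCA
Isl1: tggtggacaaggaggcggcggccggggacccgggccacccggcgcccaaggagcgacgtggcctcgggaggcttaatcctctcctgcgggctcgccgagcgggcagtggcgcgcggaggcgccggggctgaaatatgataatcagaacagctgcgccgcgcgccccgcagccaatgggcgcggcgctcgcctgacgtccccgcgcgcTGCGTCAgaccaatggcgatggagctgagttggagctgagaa
Tac1: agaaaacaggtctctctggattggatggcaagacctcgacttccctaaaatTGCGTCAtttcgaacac
A match describes letters in the window and is not evidence of binding in these samples.

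**Figure D2:**
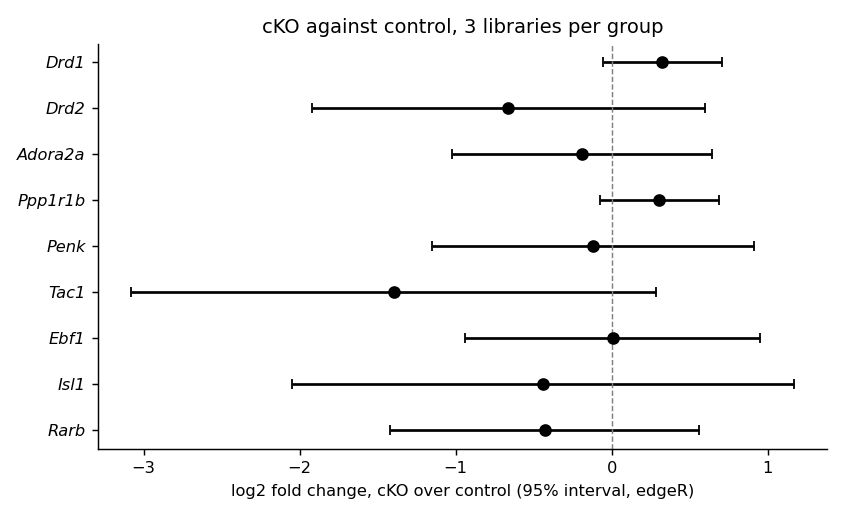
log2 fold change of cKO over control for each of the 9 genes (points) with the 95% interval of the edgeR fit (bars), 3 libraries per group. Every interval includes 0, from the narrow one of Drd1 (-0.05 to 0.70) to the wide one of Tac1 (-3.08 to 0.28).

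Read across libraries, the order was shared by most of the 9 genes and was not that of genotype. Of the 9, 6 were lowest in cKO 2 (Drd2, Adora2a, Tac1, Ebf1, Isl1 and Rarb), as were 9.87% of all genes tested, and 8 were highest in control 2 or cKO 1, as were 51.4%. The other 3 (Drd1, Ppp1r1b and Penk) were lowest in control 1. The count of 6 genes lowest in cKO 2 was the same in TPM, in FPKM and in CPM corrected for transcript length and GC content. Averaged over the 9, the log2 deviation from each gene's mean was -0.32, 0.71 and 0.01 in control 1 to 3 and 0.52, -0.82 and -0.10 in cKO 1 to 3. Each group thus held 1 library high in these genes and 1 low in them. This order was seen in the values first, so the counts are descriptions.

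The libraries at the ends of each group gave a pair of contrasts with no library in common, namely control 2 over control 1 and cKO 1 over cKO 2. On the log2(CPM + 0.5) scale, the 9 genes had medians of 0.92 and 1.25 in these contrasts, against 0.01 and 0.00143 for all genes tested. The scaling between libraries keeps the medians of all genes tested near 0. At 2-fold or more, 4 of the 9 were higher in control 2 than in control 1 (Penk, Tac1, Isl1 and Rarb) and 6 were higher in cKO 1 than in cKO 2 (Drd2, Adora2a, Tac1, Ebf1, Isl1 and Rarb). Of the 13570 genes tested, 56 and 70 were. Both held for 3 of them, Tac1, Isl1 and Rarb. Over all genes tested both held for 7 (0.0516%), the other 4 being Rxrg, Dclk3, Col6a1 and Entpd4, of which Rxrg and Dclk3 are themselves striatal neuron genes. Drd1 (1.05 and 1.40 times) and Ppp1r1b (1.48 and 0.827 times) had the smallest ratios in the contrasts. Since the libraries were chosen on the values, no test was made.

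**Figure D3:**
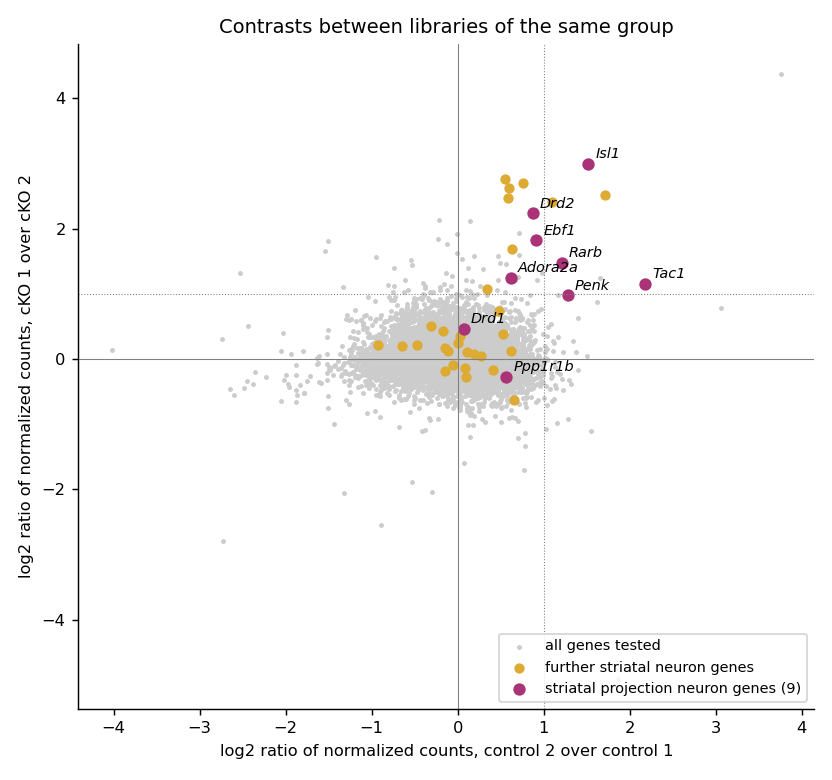
log2 ratio of normalized counts (with 0.5 CPM added) for control 2 over control 1 (x axis) and cKO 1 over cKO 2 (y axis), in grey for the 13570 genes tested, in yellow for 29 further striatal neuron genes and in purple for the 9 genes; dotted lines mark 2-fold. Tac1, Isl1 and Rarb lie beyond 2-fold on both axes, and Drd1 and Ppp1r1b lie inside the cloud of all genes.

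Summed over the 9 genes, the level was 84.1, 126.6 and 97.8 TPM in control 1 to 3 and 138.1, 103.8 and 121.4 TPM in cKO 1 to 3, which overlapped. Ppp1r1b made up 53.2% to 78.1% of this sum and set much of it. Without Ppp1r1b the sum was 31.1, 59.3 and 39.7 TPM in control and 64.3, 22.7 and 36.1 TPM in cKO. The ratio of cKO to control was 1.18 with Ppp1r1b and 0.947 without it, and in both cases the libraries of each group were spread more widely than the group means were apart. The ratio depended on the unit. It was 1.06 in CPM and 1.08 in FPKM with Ppp1r1b, and 0.905 and 0.862 without it. In TPM, without control 2, the ratio for all 9 was 1.33, and the remaining control sums (84.1 and 97.8 TPM) lay below the cKO sums. Direct-pathway genes (10.4 to 29.1 TPM) and indirect-pathway genes (9.80 to 27.5 TPM) were both highest in cKO 1 and lowest in cKO 2, with a ratio of direct to indirect of 0.817 to 1.50. The ratio of Drd1 to Drd2 was less even. It lay between 0.996 and 3.12 in 5 libraries and was 10.2 in cKO 2, where Drd2 had 11 counts.

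Further genes of striatal neurons, listed by what they are known to mark, behaved in part like the 9. The table held 35 and 29 were tested, and 0 of 29 passed in either direction, with a median log2 fold change of -0.14 and with 10 above and 19 below zero. The most abundant were Meis2 (317 ± 28.3 TPM in control, 356 ± 20.1 in cKO), Gucy1a1 (135 ± 32.7 and 123 ± 10.04) and Pde1b (70.3 ± 1.55 and 82.1 ± 2.69; SD, n = 3 in each), which the cortex also expresses. Their log2 fold changes were 0.039, -0.27 and 0.069 (adjusted p = 0.953, 0.796 and 0.918, edgeR). In CPM only Gucy1a1 of these 3 was lowest in cKO 2, at 217.7 CPM against 223.9 CPM in control 2. In TPM Gucy1a1 was lowest in control 2. Of the 29, 13 (44.8%) were lowest in cKO 2 in CPM, against 9.87% of all genes tested. Among these 13, the homeobox gene Six3 was chosen after its values were seen. It had 5.20, 7.85 and 3.84 CPM in control and 9.29, 0.944 and 4.53 CPM in cKO. Its level was thus highest in cKO 1 and lowest in cKO 2. In CPM 11 of the 29 (37.9%) were highest in control 2, near the 33.6% of all genes tested. Another 5 were lowest in it, among them Rgs9 (25.1) and Pde10a (83.0), as were 33.9% of all genes tested. After correction for transcript length and GC content 7 of the 29 were highest in control 2, as were 30.7% of all genes tested. The median log2 deviation of the list in control 2 was 0.19 before this correction and 0.015 after it. The median log2 ratio of the 29 was 0.19 for control 2 over control 1 and 0.22 for cKO 1 over cKO 2. For the 9 genes these medians were 0.92 and 1.25. Both ratios reached 2-fold for 2 of the 29.

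Subpallial progenitor genes shared the low level in cKO 2 but not the order of the controls. Of the 9 tested (of 13 in the table), all 9 were lowest in cKO 2, and 0 of 9 passed the genotype test (median log2 fold change -0.22, 2 above and 7 below zero). The homeobox gene Dlx1 had 189, 197 and 162 CPM in control 1 to 3 and 178, 113 and 154 CPM in cKO 1 to 3. Dlx2 had 47.1, 60.6 and 34.3 CPM in control and 48.8, 29.0 and 44.4 CPM in cKO, and Dlx5 had 16.5, 22.1 and 14.5 CPM in control and 22.3, 12.7 and 17.9 CPM in cKO. The median log2 deviation of the list was 0.14, 0.35 and -0.21 in control 1 to 3, so control 3 was the lowest control, where for the 9 striatal genes it was control 1 (medians of -0.35, 0.76 and 0.02). After correction for transcript length and GC content the list had 0.15, 0.16 and -0.08, so control 2 no longer stood out. The 9 genes then had -0.34, 0.65 and 0.06. The median of control 2 over control 1 was 0.061 on the log2 scale for the list. The summed level of the list was 252 to 303 TPM in control and 195 to 333 TPM in cKO. For cKO 1 over cKO 2 the median log2 ratio was 0.79 for the list and 1.25 for the 9 striatal genes. At 2-fold or more, 3 of the 9 subpallial genes and 6 of the 9 striatal genes were higher in cKO 1. The ratios of single genes overlapped between the lists, with Drd1 at 1.40 times and Ppp1r1b at 0.827 times.

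Cortical interneurons are also born in the subpallium and migrate into the cortex, so their genes were read beside the striatal ones. Of 20 tested, 0 passed, with a median log2 fold change of -0.01 (10 above, 10 below zero). In CPM they were lowest in cKO 2 in 6 of 20 cases, as were 9.87% of all genes tested. Npy, Satb1 and Lhx6, the most abundant, had 494 ± 17.03, 78.4 ± 15.2 and 75.8 ± 1.94 TPM in control and 703 ± 158, 100.5 ± 6.07 and 93.0 ± 3.42 TPM in cKO (SD, n = 3). Their groups did not overlap in TPM, in which 53.0% of all genes tested were lowest in control 2, but overlapped in CPM. Their log2 fold changes were 0.32, 0.15 and 0.14 (adjusted p = 0.796, 0.854 and 0.856, edgeR). Npy was highest in cKO 1 (96.1 CPM, against 54.3 to 72.3 in the other 5 libraries). Of 15 pallial excitatory genes 8 were lowest in cKO 1 in CPM and 4 in TPM, as were 13.7% and 6.20% of all genes tested. In TPM 8 of the 15 were lowest in control 2. At an adjusted p under 0.05, 0 of 15 passed.

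**Figure D4:**
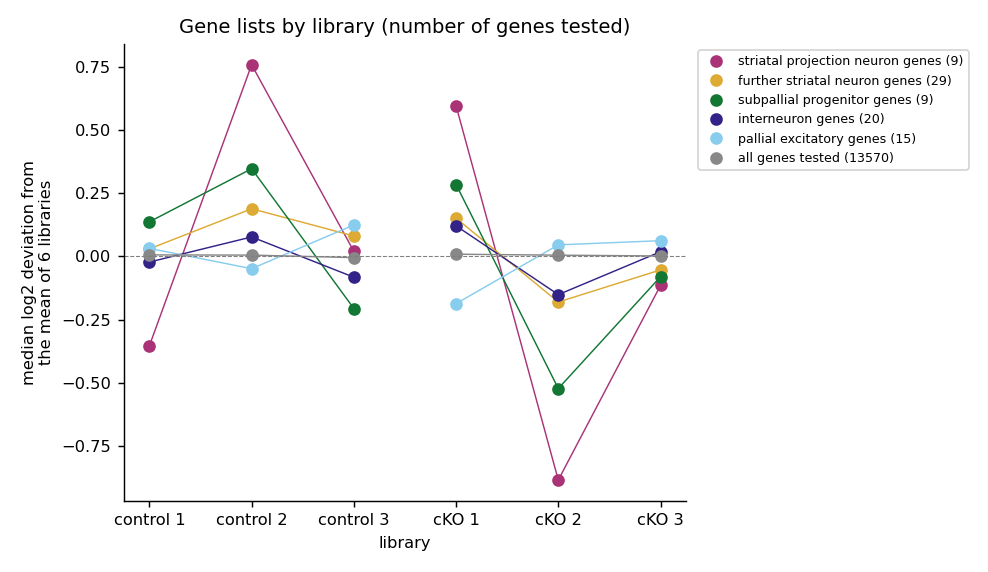
Median log2 deviation from the mean of the 6 libraries for 5 gene lists and for all genes tested, by library; lines join libraries of the same group only and carry no order. The 9 striatal projection neuron genes run from -0.88 in cKO 2 to 0.76 in control 2, the subpallial progenitor genes are also lowest in cKO 2 (-0.52) but are above 0 in control 1 (0.14) and below it in control 3 (-0.21), and all genes tested stay near 0.

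The molecular partners of the 9 genes were taken from lists by function. In dopamine and DARPP-32 signaling, 0 of 23 genes tested passed, with 8 above and 15 below zero and a median log2 fold change of -0.06. Gnas, Gnb1 and Ppp1ca, the most abundant, encode a G protein alpha subunit, a beta subunit and the phosphatase that DARPP-32 inhibits, and had log2 fold changes of -0.044, -0.045 and -0.26. Of the genes by which dopamine is made and transported, Th had 0 to 0.128 CPM, Slc6a3 0 to 0.124 CPM and Ddc 0.433 to 1.35 CPM, none of which passed the filter. Slc18a2, the vesicular monoamine transporter, had 8.90, 11.1 and 6.85 CPM in control and 15.7, 5.73 and 9.77 CPM in cKO, highest in cKO 1 and lowest in cKO 2 (log2 fold change 0.22, SE 0.33, adjusted p = 0.920, edgeR). For opioids and tachykinins, 0 of 6 genes passed, the opioid receptor genes Oprm1, Oprd1 and Oprk1 did not pass the filter, and the convertase gene Pcsk2, which cleaves peptide precursors, had 32.7, 33.4 and 32.1 CPM in control and 65.8, 43.0 and 54.2 CPM in cKO. That difference, without overlap, had a log2 fold change of 0.73 and did not pass (SE 0.15, adjusted p = 0.250, edgeR). Cpe, a peptide-processing carboxypeptidase, and Oprl1, the nociceptin receptor, had log2 fold changes of 0.10 and -0.28.

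In retinoic acid signaling, which includes the partners of the Rarb receptor, 0 of 13 genes passed, with 2 above and 11 below zero and a median log2 fold change of -0.18. Rxrg encodes a retinoid X receptor of striatal neurons with which Rarb can pair. It had 4.08, 14.5 and 4.73 CPM in control 1 to 3 and 5.94, 0.629 and 2.17 CPM in cKO 1 to 3. Control 2 was high and cKO 2 low, as for Rarb, while its relative Rxrb had 53.4 to 75.2 CPM over the 6 libraries with log2 fold change -0.085. Meis2, a homeobox gene that responds to retinoic acid, had a log2 fold change of 0.04.

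Genes of neighboring tissues were read as well. Pallidal and cholinergic (5 tested), thalamus (8), hippocampus (6), choroid plexus (2) and blood and meningeal (8) genes had 0 called. Summed levels in control and cKO were 33.5 to 39.0 and 39.9 to 45.9 TPM for pallidal and cholinergic genes, 296 to 303 and 297 to 324 TPM for thalamus genes and 83.7 to 94.2 and 89.5 to 99.2 TPM for hippocampus genes. They were 6.39 to 8.73 and 7.70 to 10.5 TPM for choroid plexus genes and 7584 to 8407 and 8005 to 9448 TPM for blood and meningeal genes. None of these sums had cKO 2 as its lowest library. Nor did the TPM sum of the 9 genes, which was lowest in control 1 (84.1 TPM). Of all genes tested, 5.04% were lowest in cKO 2 in TPM and 53.0% in control 2. The part of these tissues in the values of the 9 genes was not tested.

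By library profile, the 10 genes nearest to the 9 out of 13064 other genes with a mean of at least 1 CPM were Cd247, Zcchc12, Ntn1, Lypd1, Dlx6, Tnfaip6, Trpc7, Actn2, Strip2 and Vax1. Likeness was measured as the root mean square difference of log2(CPM + 0.5) deviations over the 6 libraries, which was 0.157 for Cd247 and 0.238 for Vax1, where the profile of the 9 genes itself had a root mean square of 0.511. Zcchc12, the most abundant of them, had 22.6, 36.2 and 23.7 CPM in control and 39.7, 16.9 and 25.6 CPM in cKO. Vax1, a homeobox gene of the ventral forebrain, had 10.7, 12.9 and 9.66 CPM in control and 12.4, 5.41 and 9.13 CPM in cKO. Both were highest in control 2 or cKO 1 and lowest in cKO 2, an order that follows from choosing genes by this profile. Dlx6 is a subpallial gene, and Actn2 and Strip2 were among the further striatal genes.

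How far the genotype difference rested on single libraries was examined by leaving out each in turn. Drd1 and Ppp1r1b kept a positive fold change throughout (0.19 to 0.44 and 0.21 to 0.52 on the log2 scale), and Drd2 and Tac1 a negative one (-1.43 to -0.20 and -2.02 to -0.25). Adora2a (-0.69 to 0.15), Penk (-0.53 to 0.50), Ebf1 (-0.50 to 0.38), Isl1 (-1.38 to 0.10) and Rarb (-1.003 to 0.032) changed sign. The lowest values came from leaving out cKO 1 for 8 of the 9 genes, and the highest came from leaving out control 2 or cKO 2 for all 9.

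**Figure D5:**
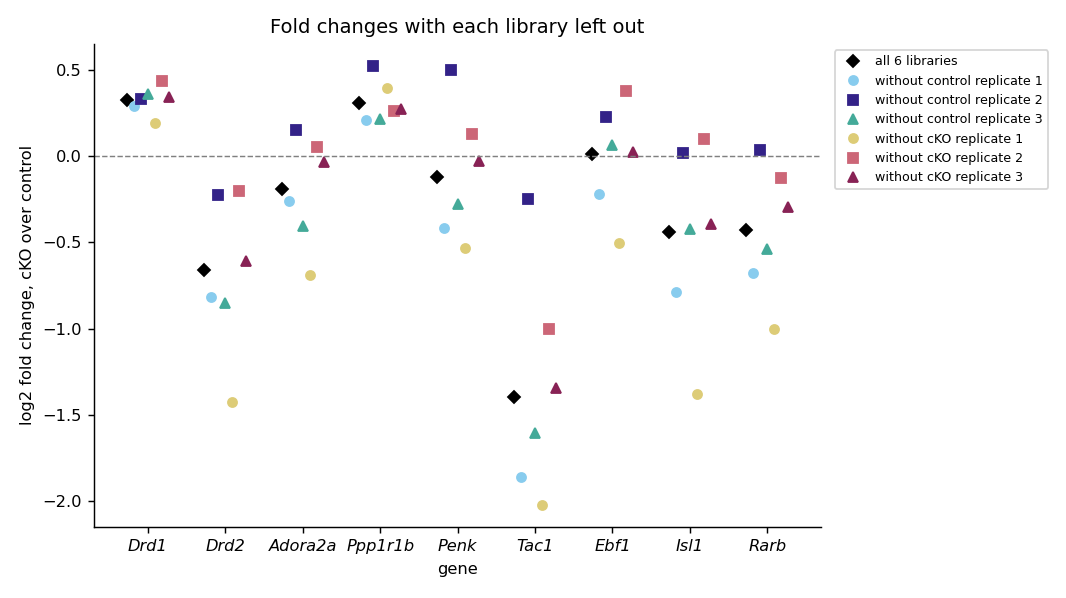
log2 fold change of cKO over control for each of the 9 genes with all 6 libraries (black diamonds) and with each library left out (colored symbols). Leaving out cKO 1 lowers most of the genes and leaving out control 2 or cKO 2 raises them, so that Adora2a, Penk, Ebf1, Isl1 and Rarb lie on both sides of 0.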

How the data were processed

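The libraries were made from dissected cortices and sequenced on a DNBSEQ platform. The deposited table has 27 columns, and 18 of them (estimated counts, TPM and FPKM in each library) were used. The authors' estimated counts carried no normalization between libraries, and 89.4% were whole numbers. The authors' TPM and FPKM values are relative to transcript length and library size. The submitters' processing notes name HISAT2 2.2.1, Bowtie2 2.4.5, RSEM 1.3.1 and GRCm38/mm10, with no role given. Strandedness is not given in the sources used here.

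Estimated counts were rounded, filtered with filterByExpr, scaled by TMM and compared with edgeR 4.0.16 in R 4.3.3 (quasi-likelihood test, Benjamini-Hochberg adjustment over all genes tested, no block). CPM values use the TMM-scaled totals. Exact permutation tests were two-sided. At these totals 3 counts equal 0.176 to 0.206 CPM, and intervals and this floor cover counting error only. No pair of libraries was a duplicate. The script was tested on simulated counts.

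The alternatives were RLE size factors, DESeq2 1.42.0, no filter, CPM above 1 in 2 libraries, the replicate block, a length and GC correction (mgcv 1.9.3; 96.7% of genes had values), other units for sums, each library left out and an adjusted p under 0.1. The 9 genes and all lists were chosen with earlier results of these data known. Genes named were the 9, Ybx1, the 3 most abundant of each list described, any list gene with an adjusted p under 0.05 (there was 0) and the 10 nearest by library profile; others were chosen after their values were seen. Items withheld for evaluation are not reported here. Figures were drawn with matplotlib 3.10.9.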

Additional observations from a re-analysis of the deposited data

How the results depend on the processing

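The number of genes with an adjusted p under 0.05, 10 in the main comparison, was 99 with DESeq2, 27 after correcting for length and GC content, 21 after doing so with the replicate block, 18 at an adjusted p under 0.1, and 8 to 122 with 1 library left out (122 without control 2, 19 without control 3). Of 117 fits of the 9 genes under 13 alternatives, 103 kept the main direction, and 1 passed the adjusted threshold: Ppp1r1b without control 2, with a log2 fold change of 0.52 in a range of 0.21 to 0.52 over the libraries left out. DESeq2 gave no adjusted p for Penk and Tac1. Adjusted p for the 9 genes over the alternatives ranged from 0.0499 to 0.9999.

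Directions turned for Adora2a (-0.69 to 0.15 with 1 library left out; 0.15 without control 2 and 0.049 without cKO 2), Isl1 (-1.38 to 0.096; 0.015 and 0.096), Rarb (-1.003 to 0.032; 0.032 without control 2), Penk (-0.53 to 0.50; 0.50 and 0.13, and 0.00228 after correcting for length and GC content with the replicate block) and Ebf1 (-0.50 to 0.38; -0.22 without control 1 and -0.50 without cKO 1). Ebf1, at 0.0086 in the main comparison, was also -0.012 with no filter, -0.10 with the replicate block, -0.094 after correcting for length and GC content and -0.16 with both. The median of the further striatal neuron genes was 0.02 and that of the interneuron genes 0.11 without cKO 2. The cause was not tested. The ratio of summed TPM, cKO over control, 1.18 in the main comparison, was 0.947 (without Ppp1r1b) to 1.33 (without control 2) under its 9 alternatives. Its direction turned only without Ppp1r1b, and without control 2 the control and cKO sums no longer overlapped.

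With the replicate number as a block, 11 genes passed and 0 of the 9. Same-numbered libraries deviated from their group means with correlations of 0.099, 0.085 and 0.262, so the numbers were not taken to pair the libraries, although each cKO library correlated best with its own number, a hint from the data and not from the design. The counts of 6 genes lowest in cKO 2 and 3 genes beyond 2-fold in both contrasts, with alternatives chosen after seeing the data, were 6 in each other unit and 4 with the length and GC correction. Low counts limit Tac1, Isl1 and Drd2 most, at 4, 5 and 11 counts in cKO 2.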
